A study of Homo sapiens with 4 samples.

Results

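The genes of G2/M and mitosis were examined in nascent RNA from cells whose RNA polymerase II carried either a wild-type C-terminal domain (CTD) or one without Thr4. They were 42 protein-coding genes of mitotic entry, spindle, kinetochore and cytokinesis, chosen by gene symbol and found in a table of 60708 genes by stable gene identifier. All 42 symbols were found, and 40 of them had enough counts to be tested.

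The 4 libraries were of HEK293 cells, a human embryonic kidney line, and were made by TT-seq, in which RNA made during a short pulse of 4-thiouridine, here 20 min, is purified and read, introns included. All 4 samples were of the RPB1 degron genotype, in which auxin triggers destruction of the endogenous RPB1, the largest subunit of the polymerase. The 2 libraries named 52X WT came from cells transfected with an RPB1 plasmid with 52 wild-type CTD repeats, and the 2 named 52X T4A from cells with a plasmid in which Thr4 of every repeat was alanine. In both groups auxin was added 48 h after transfection and kept for 48 h. Transfection was transient and the share of cells that took up a plasmid is not given in the sources used here. The labels do not say whether the replicates were separate cultures, so the tests measure only the spread between these libraries. The libraries held 39249066 and 45605027 counts for WT and 33853507 and 33188536 counts for T4A. WT replicates correlated at 0.991 (log2 CPM), T4A replicates at 0.979, and T4A replicate 1 correlated less with both WT libraries (0.975 and 0.974) than T4A replicate 2 did (0.989 and 0.988). POLR2A, to which endogenous and plasmid RPB1 RNA both align, had the most counts of any gene in WT replicate 1. It held 0.961% and 0.843% of the WT counts and 0.743% and 0.842% of the T4A counts, which does not tell wild-type from T4A RNA. Of the genes taken as markers of HEK293, NEFL and EYA1 had at least 1872 counts in every library, LHX1 had 106 to 152, PAX2 80 to 96 and NEFM 0 to 6, whereas PTPRC, CD3E, ALB and INS, of other cell types, had at most 38.

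Entry into mitosis is driven by CDK1 bound to cyclin B, which CDC25 phosphatases activate and Aurora and Polo-like kinases reinforce. Kinetochores then couple chromosomes to the spindle, the checkpoint holds the anaphase-promoting complex back until all are attached, and destruction of cyclin B and securin starts anaphase. Most of these genes are transcribed periodically, with a peak in G2 and mitosis. Their promoters are known for the cell cycle genes homology region (CHR), which the MuvB complex binds together with repressors in quiescent cells and with B-MYB and FOXM1 in cycling cells, and for CCAAT boxes. In cultures that are not synchronized, fewer cells in G2 or mitosis and less RNA per cell cannot be told apart.

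The promoter sequences showed what these genes share beyond their function. RefSeq promoters of GRCh38.p14, 250 bases before to 50 bases after the start, were at hand for 36 of the 42 genes, and the first one listed was taken where a gene had several. The CHR letters TTTGAA or the related TTTAAA stood on either strand in 30 of 36, or 83.3%, against 19.4% of 15276 promoters of protein-coding genes and 24.3% of all 27305 promoters. TTTGAA alone was found in 69.4% and 12.1% of the gene set and of the protein-coding promoters. CCAAT was found on either strand in 77.8% and 36.6%, and a CHR form together with CCAAT in 66.7% and 7.94%. A match is a string of letters and not a measured site. The stretches below are shown because they carry this shared element in main regulators and in 5 of the 8 genes with an unadjusted p-value under 0.05 between T4A and WT. Of the other 3, NEK2, which had the largest difference of all, held neither CHR form, and BUB3 and AURKA had no promoter listed. Each is 30 bases, 5′ to 3′ on the gene's strand, with the CHR letters in capitals.
CCNB1 at chr5:69167108-69167137, plus strand: agcagtgcggggTTTAAAtctgaggctagg
CCNB2 at chr15:59105105-59105134, plus strand: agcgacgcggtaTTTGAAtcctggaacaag
CDK1 at chr10:60778158-60778187, plus strand: gagtataataaaTTTGAActgtgccaatgc
PLK1 at chr16:23678848-23678877, plus strand: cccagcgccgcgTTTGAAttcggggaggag
CKS2 at chr9:89311154-89311183, plus strand, where the capitals read TTTGAA on the opposite strand: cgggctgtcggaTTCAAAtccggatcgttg
PTTG1 at chr5:160421814-160421843, plus strand: cgcgagttgtggTTTAAAccaggagtgcgc
KIF20A at chr5:138179059-138179088, plus strand: cgcagcgcgtaaTTTAAAatattgtatctg
MKI67 at chr10:128126435-128126464, minus strand: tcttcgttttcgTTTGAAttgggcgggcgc
ANLN at chr7:36389830-36389859, plus strand: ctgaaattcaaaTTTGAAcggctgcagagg
In CCNB1, CCNB2, PLK1, CKS2, PTTG1 and MKI67 the first of the capitals shown lay at -30 or -29 from the start. In ANLN, KIF20A and CDK1 it lay at -20, -41 and -161.

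Relative to the other genes tested, nascent RNA of the mitotic genes differed little between T4A and WT cells. Counts were scaled between libraries, so a change shared by most genes would not be seen here. None of the 40 tested genes passed an adjusted p-value of 0.05 with a fold change above 1.5, the threshold used here, where 0.00429% of all 23321 genes tested did, that is 1 gene. CKS2 had the lowest adjusted p-value among them, 0.173 (edgeR, quasi-likelihood F test, Benjamini-Hochberg). Their 95% intervals were narrow. For 38 of 40 genes the interval lay wholly within 1.5-fold in either direction, against 41.3% of all genes tested. The exceptions were CKS2 and NEK2, whose intervals reached 1.52-fold and 1.63-fold. Narrow intervals were not particular to these genes. The share was 90.68% in the 5 other mitotic lists and 96.55% in the genes of G1/S and replication, both described below. Every tested gene had at least 591 counts in every library, so none entered the test through one group alone.

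**Figure D1:**
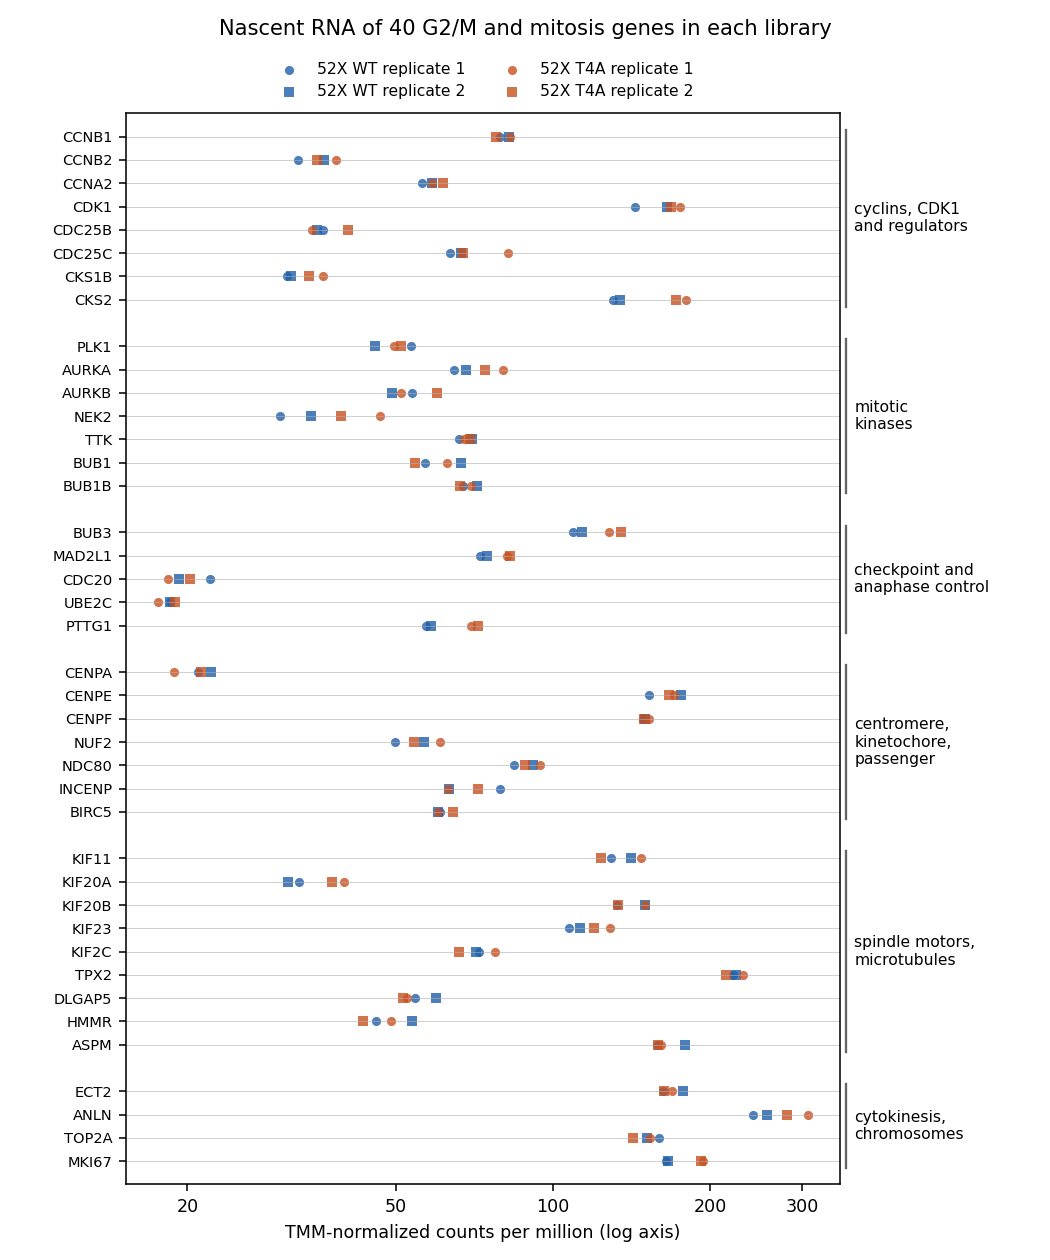
TMM-normalized CPM (log axis) of the 40 tested genes, grouped by role, with 1 point per library (blue, 52X WT; orange, 52X T4A; circles, replicate 1; squares, replicate 2). Levels run from 17.6 for UBE2C to 307 for ANLN, and in most rows the 4 points lie close together, while in CKS2, PTTG1, BUB3 and MKI67 both orange points lie to the right of both blue ones.

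Below that threshold the differences leaned one way. The log2 fold change was above 0 for 27 genes and below 0 for 13, with a median of 0.04 and a range from -0.13 to 0.42, and the median over all genes tested was -0.00076. The order of these medians turned without WT replicate 1, where they were 0.0071 and 0.0179, and with no filter on low counts, where they were 0.0069 and 0.0559. With an unadjusted p-value under 0.05 by edgeR, 8 genes were higher in T4A and 0 lower. Over all genes tested 7.45% were higher and 8.02% lower at that p-value, and over the 15329 protein-coding genes 6.58% and 10.5%. Both T4A libraries lay above both WT libraries in 14 of 40 genes and below them in 1, DLGAP5, where the background was 24.8% and 24.7%. The count of 8 depended on single libraries and on the fit. With libraries scaled to mitochondrially encoded genes it was 1 of 40, where 5.72% of all genes tested were higher. With the replicate number as a block it was 3, where 6.81% were, and with library size in place of TMM 13, where 10.5% were. The count of lower genes was 0 in each of these fits. With 1 library left out, the median log2 fold change of the mitotic genes ran from 0.0071 to 0.0431.

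**Figure D2:**
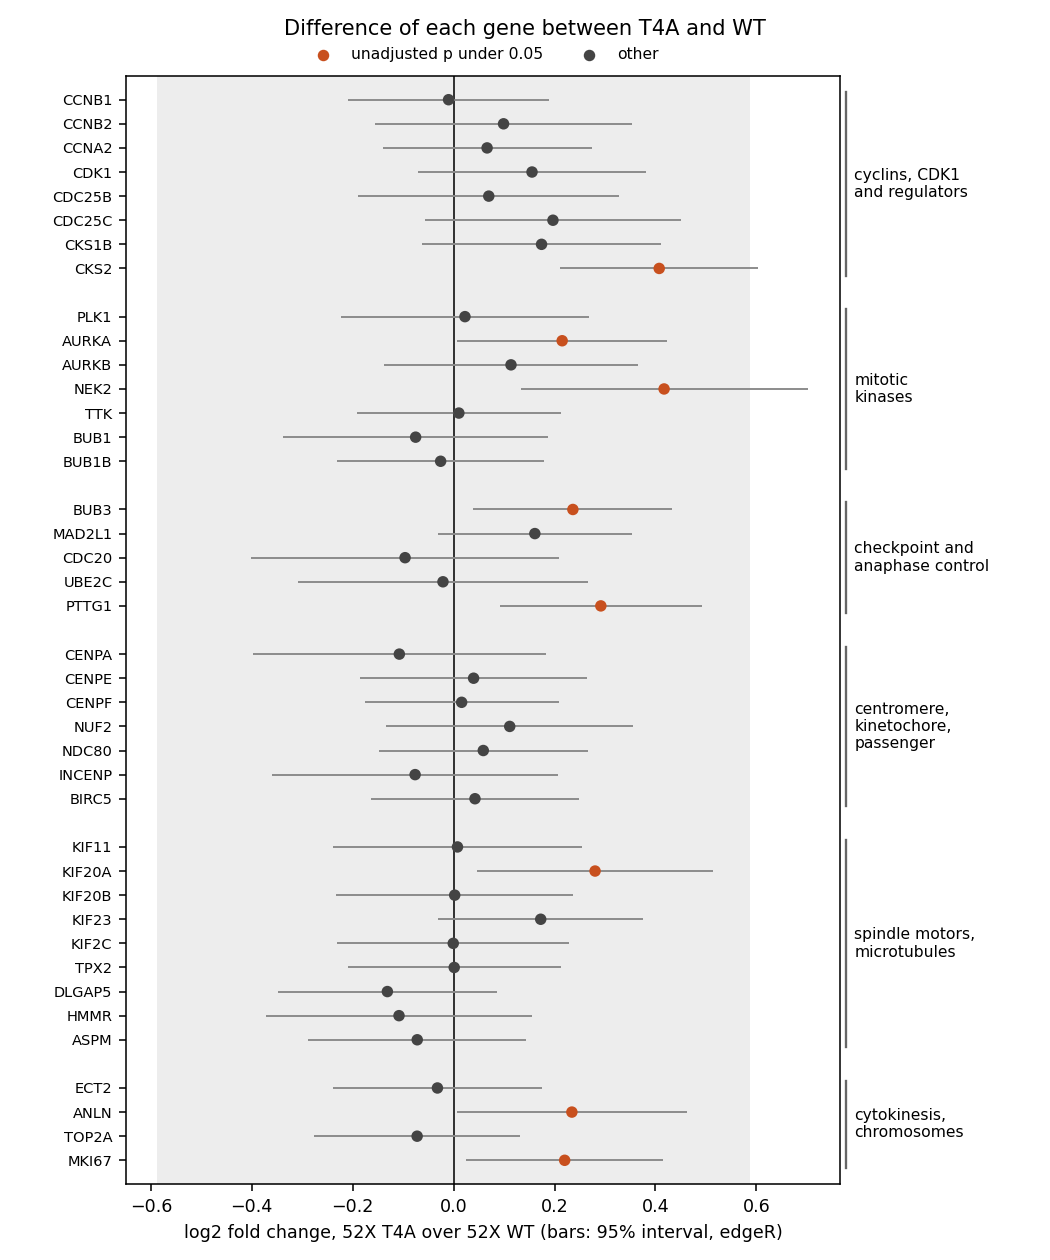
Log2 fold change of 52X T4A over 52X WT for each tested gene with its 95% interval from edgeR, by role; the grey band marks 1.5-fold in either direction and orange points an unadjusted p-value under 0.05. All 8 orange points lie to the right of 0, and only the bars of CKS2 and NEK2 reach beyond the band.

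The single roles described here and below hold 4 to 9 tested genes each, too few to be read against the background of all genes. Of all 23321 genes tested, 11634 had a log2 fold change above 0, and 7.45% were higher at an unadjusted p-value under 0.05 by edgeR. Among the cyclins, CDK1 and its regulators, 7 of 8 genes had a log2 fold change above 0, and 1 had such a p-value. Their median was 0.13, and 0.06 without WT replicate 1. CKS2, a small subunit that binds CDK1 and helps it to reach multiply phosphorylated substrates, had 5106 and 5935 counts in WT and 6027 and 5950 counts in T4A. This is 130.4 and 135 normalized CPM (counts scaled to the library's effective size by TMM) in WT and 180 and 172 in T4A. The groups did not overlap, and the gap between them was wider than the spread within either. Its log2 fold change was 0.41 (standard error 0.09), with an unadjusted p-value of 0.00125 and an adjusted p-value of 0.173 by edgeR's test. Its paralog CKS1B stood at 31.1 and 31.5 normalized CPM in WT and 36.4 and 34.2 in T4A, a log2 fold change of 0.17 (standard error 0.10, adjusted p = 0.441 by edgeR). Both T4A libraries were above both WT libraries here too, by a smaller margin. CDK1, the kinase that drives mitotic entry, measured 144 and 165 normalized CPM in WT and 175 and 168 in T4A. Its log2 fold change of 0.16 (standard error 0.10, adjusted p = 0.465 by edgeR) had a 95% interval from -0.07 to 0.38 and was 0.05 without WT replicate 1 and 0.24 without WT replicate 2. CCNB1, the main cyclin B, was at 79.3 and 82.4 in WT and 82.8 and 77.7 in T4A. Its log2 fold change was -0.01 with a 95% interval from -0.21 to 0.19. CDC25C, a phosphatase that activates CDK1, was 63.6 and 66.8 in WT and 82.1 and 67.4 in T4A, so that its log2 fold change of 0.20 (adjusted p = 0.417 by edgeR) was 0.06 without T4A replicate 1. CCNA2, CCNB2 and CDC25B had log2 fold changes between 0.07 and 0.10.

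The mitotic kinases had a median log2 fold change of 0.02, which ran from -0.0061 without T4A replicate 2 to 0.13 without WT replicate 1. At an unadjusted p-value under 0.05 by edgeR 2 of 7 were higher, against 7.45% of all genes tested. NEK2, which releases the linkage between centrosomes before the spindle forms, was 30.04 and 34.5 normalized CPM in WT and 46.8 and 39.4 in T4A. The groups did not overlap, and each pair of replicates differed by several CPM. Its log2 fold change, 0.42 (standard error 0.12, adjusted p = 0.235 by edgeR), was the highest of the 40, and it was 0.29 without T4A replicate 1. AURKA, the Aurora kinase of centrosomes and spindle poles, was 64.8 and 68.3 in WT and 80.3 and 74.2 in T4A, a log2 fold change of 0.22 (standard error 0.09, adjusted p = 0.312 by edgeR). AURKB, the Aurora kinase of the chromosomal passenger complex, was 53.7 and 49.2 in WT and 51.1 and 60.2 in T4A. These groups overlapped, and the difference on the log2 scale was 0.11 (standard error 0.11, adjusted p = 0.635 by edgeR). PLK1, the Polo-like kinase of mitotic entry and spindle assembly, was 53.6 and 45.6 in WT and 49.6 and 51.1 in T4A, with both T4A values between those of WT. Its 95% interval ran from -0.22 to 0.27. TTK, BUB1 and BUB1B, kinases and a kinase-like protein of the spindle checkpoint, had log2 fold changes of 0.01, -0.08 and -0.03.

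Of the 5 genes of the checkpoint and of anaphase control, 2 were higher at an unadjusted p-value under 0.05 by edgeR, against 7.45% of all genes tested. PTTG1 encodes securin, the inhibitor of separase. It was 57.3 and 58.4 normalized CPM in WT and 69.8 and 71.8 in T4A, with replicates that nearly coincided. The log2 fold change of PTTG1 was 0.29 (edgeR standard error 0.09, adjusted p = 0.236). BUB3, which carries BUB1 and BUB1B to kinetochores, was 109 and 114 in WT and 128 and 135 in T4A, a log2 fold change of 0.24 (standard error 0.09, adjusted p = 0.271 by edgeR). MAD2L1, the checkpoint protein MAD2, was also higher in both T4A libraries, at 72.5 and 74.7 against 81.9 and 82.6, with an unadjusted p-value of 0.0904 by edgeR's test. CDC20 and UBE2C, an activator and the ubiquitin-conjugating enzyme of the anaphase-promoting complex, had log2 fold changes of -0.10 and -0.02, and their groups overlapped. UBE2C carries a further limit, since its 5 annotated pseudogenes found by name held 15.2% as many counts as the gene itself. Copies of any of these genes under other names were not searched for.

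The centromere, kinetochore and chromosomal passenger genes were the role in which T4A and WT libraries overlapped in every gene. Their log2 fold changes ran from -0.11 for CENPA, the centromeric histone H3 variant, to 0.11 for NUF2, which with NDC80 attaches kinetochores to microtubules. CENPE, a kinetochore motor, was 152 and 176 normalized CPM in WT and 170.4 and 167 in T4A, and CENPF, a large kinetochore and nuclear matrix protein, was 149 and 149.9 in WT and 153 and 149 in T4A. The values of CENPF differed by less than 5 CPM over all 4 libraries. BIRC5, or survivin, and INCENP, both of the chromosomal passenger complex, had log2 fold changes of 0.04 and -0.08.

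Among the 9 tested genes of spindle motors and microtubule proteins the median log2 fold change was 0.0012, which ran from -0.08 without WT replicate 1 to 0.05 without T4A replicate 2, and KIF20A alone had an unadjusted p-value under 0.05. KIF20A, a kinesin of the central spindle, was 32.7 and 31.2 normalized CPM in WT and 39.8 and 37.8 in T4A, without overlap. The difference was 0.28 on the log2 scale (edgeR standard error 0.10, adjusted p = 0.271). KIF23, the kinesin of the centralspindlin complex, was 108 and 113 against 129 and 120. KIF11, KIF20B, KIF2C and TPX2, motors and a spindle assembly factor, had log2 fold changes between -0.00071 and 0.01. DLGAP5, HMMR and ASPM, proteins of spindle microtubules and poles, had log2 fold changes of -0.13, -0.11 and -0.07. DLGAP5 was 54.4 and 59.6 in WT and 52.6 and 51.6 in T4A, without overlap but with a 95% interval from -0.35 to 0.09.

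NUSAP1 and PRC1, which bundle spindle and midzone microtubules, were left without a measurement. They had 1 to 4 and 5 to 14 counts per library. Of the NUSAP1 span (chr15:41320794-41381050) 99.9% and of the PRC1 span (chr15:90966040-90995629) 99.5% lie within a longer, unnamed protein-coding gene model on the same strand, and the counts of these models, 36 to 84 and 48 to 66 per library, were low as well. Such counts are no evidence of low transcription, since reads over more than one gene of a strand appear not to have been assigned. CENPA shares 46.1% of its span with SLC35F6, which is listed at 0 in all 4 libraries, and CCNB2 shares 20.1% with a lncRNA gene. The other genes share at most 6.42% with a gene of their strand.

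Of the 4 genes of cytokinesis and chromosome structure, 2 were higher at an unadjusted p-value under 0.05 by edgeR, against 7.45% of all genes tested. MKI67, the proliferation marker Ki-67 that coats mitotic chromosomes, was 165 and 166 normalized CPM in WT and 193 and 192 in T4A. Replicates lay within 2 CPM of each other, and the difference on the log2 scale was 0.22 (standard error 0.09, adjusted p = 0.290 by edgeR). ANLN, the scaffold anillin of the contractile ring, was 242 and 257 in WT and 307 and 280 in T4A, a log2 fold change of 0.23 (standard error 0.10, adjusted p = 0.315 by edgeR). TOP2A, the topoisomerase that untangles sister chromatids and another common marker of proliferating cells, was 159.7 and 151 in WT and 153 and 142 in T4A. Its log2 fold change was -0.07 (standard error 0.09), with a 95% interval from -0.28 to 0.13. ECT2, which activates RhoA at the division plane, had a log2 fold change of -0.03.

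**Figure D3:**
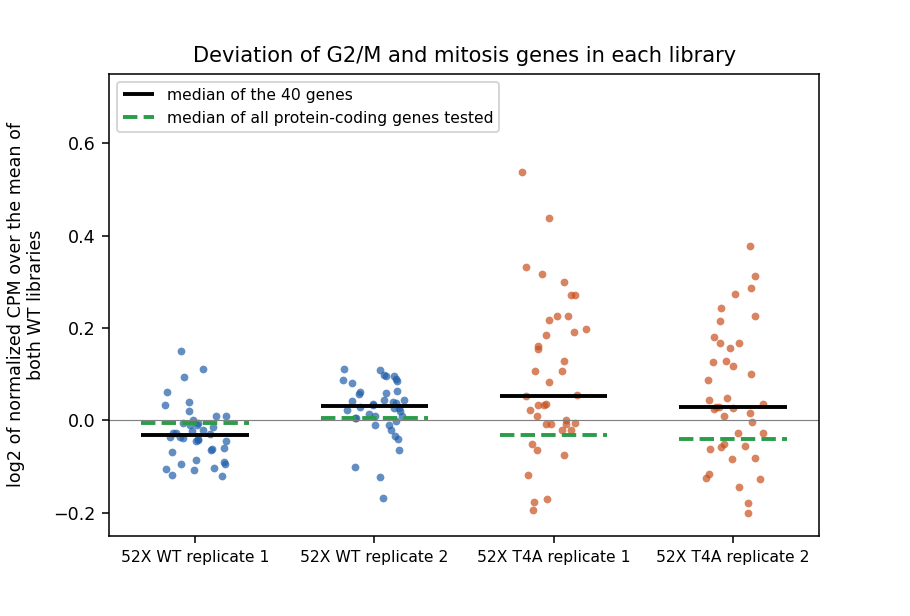
Log2 ratio of each tested gene's normalized CPM to the mean of both WT libraries, with 1 point per gene in each library; black bars are medians of the 40 genes and dashed green bars medians of the protein-coding genes tested. The black bars stand at -0.03 and 0.03 in WT and 0.05 and 0.03 in T4A, and the points spread more widely in T4A, whose libraries did not set the reference.

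Over the list of 40 genes the T4A and WT libraries overlapped. Their median deviation from the mean of the WT libraries was -0.033 and 0.032 in WT replicates 1 and 2 and 0.053 and 0.029 in T4A replicates 1 and 2, so that T4A replicate 2 lay between the WT libraries. The median log2 fold change was 0.04 in the 40 genes and -0.04 in the protein-coding genes tested.

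**Figure D4:**
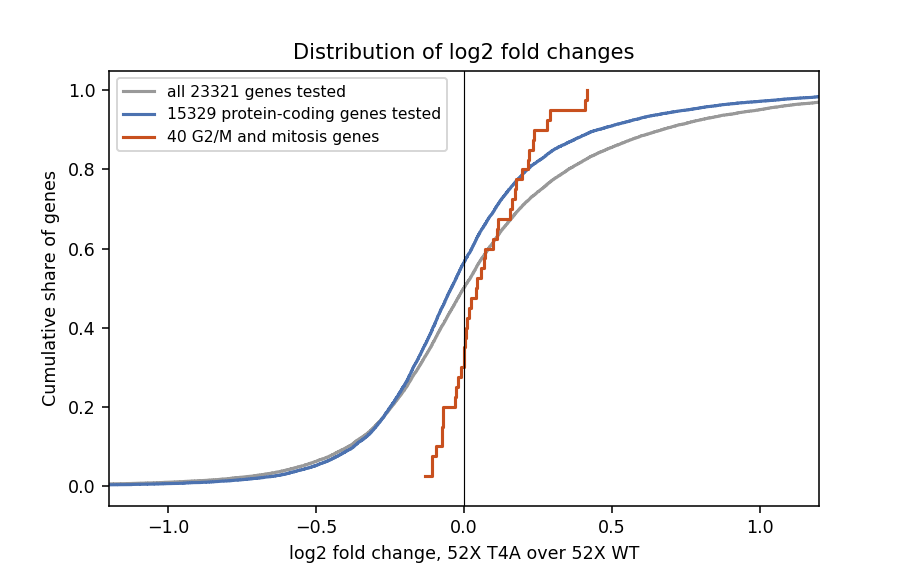
Cumulative share of genes by log2 fold change of 52X T4A over 52X WT for all genes tested, the protein-coding genes tested and the 40 G2/M and mitosis genes; the axis ends at 1.2 in either direction. The curve of the 40 genes is steep, between -0.13 and 0.42, and lies to the right of the protein-coding curve over its lower part.

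Levels per length were compared as normalized CPM per kb of the span that no other gene of the strand shares, which includes introns. CKS2 was highest in both groups, at 24.4 ± 0.546 per kb in WT and 32.4 ± 0.973 in T4A (SD, n = 2). CDK1 was second, at 9.34 ± 0.920 and 10.4 ± 0.295, and AURKB, PTTG1, CCNA2 and CCNB1 followed between 7.27 and 8.76 in WT. In WT, CDK1 and AURKB, and AURKB and PTTG1, differed by less than the larger SD of each pair. The lower end of the order is not settled, since the listed spans of NUF2 and CENPA, the lowest by this measure, are 89.2 and 36.8 kb and those of their RefSeq genes 33.8 and 8.53 kb. For the other 38 tested genes the listed span was at most 1.5 times the RefSeq span. The 9 highest genes in WT each span at most 16.5 kb.

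Of the 8 genes higher in T4A at an unadjusted p-value under 0.05 by edgeR, 5 span under 20 kb, as do 17 of the 40 tested. AURKA, MKI67 and ANLN are longer. Listed spans ran from 4.22 kb for CDC20 to 93.1 kb for CENPE. By their RefSeq spans of 8.53 and 33.8 kb, CENPA and NUF2 would each fall into a shorter class than the one used below. Of 17 tested genes under 20 kb, 5 had an unadjusted p-value under 0.05 and were higher, with a median log2 fold change of 0.11, whereas the 4822 protein-coding genes of that span had a median of -0.04 and 5.91% were higher. Of 9 genes from 20 to 40 kb 2 were higher, against 7.38% of protein-coding genes, and of 14 genes of 40 kb or more 1 was, against 6.68%, so that the share in the longest class was near the background. The medians of these classes were -0.00071 and 0.0049. In the longest class 15.99% of the 7429 protein-coding genes were lower at an unadjusted p-value under 0.05, and 0 of the 14 mitotic genes were. Across the 40 genes, which share libraries, Spearman's rho of log2 fold change with span was -0.288, against 0.0103 across protein-coding genes, given as a description. Genes with and without the CHR letters overlapped in fold change, for the 28 tested genes with a CHR form had a median log2 fold change of 0.02 and a range from -0.13 to 0.41, and the 6 without one had a median of 0.09 and a range from -0.08 to 0.42.

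**Figure D5:**
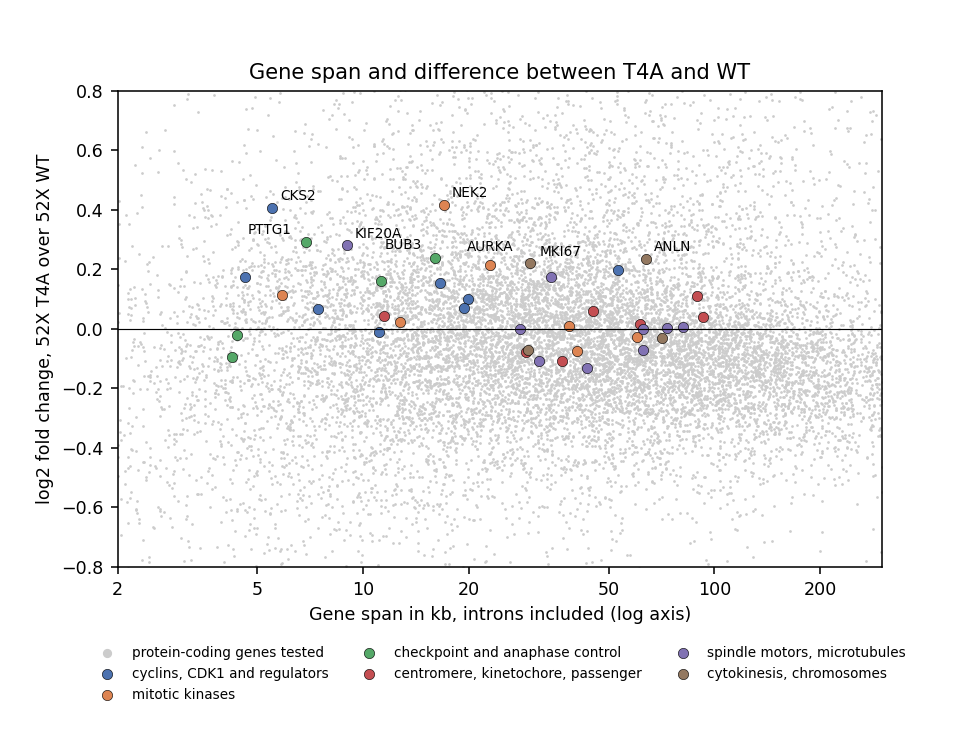
Log2 fold change of 52X T4A over 52X WT against gene span in kb (log axis) for the 40 tested genes, colored by role, over the protein-coding genes tested in grey; named points have an unadjusted p-value under 0.05, and the axes leave out genes beyond 2 to 300 kb or 0.8 in either direction. CKS2, PTTG1, KIF20A, NEK2 and BUB3 lie under 20 kb, and the genes of 40 kb or more lie near 0 with ANLN as the highest.

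Other genes of the pathway were taken from 5 lists of 121 genes that hold none of the 42. None of the 118 tested passed the threshold. With an unadjusted p-value under 0.05, 8 stood higher and 5 lower, or 6.78% and 4.24%, near or below the 7.45% and 8.02% of all genes, and the median log2 fold change was -0.02. The single lists hold too few such genes to be read against that background. In kinetochore and centromere genes 3 of 30 were higher, led by CENPL at 0.29, and 0 lower. In condensin and cohesin genes 1 of 22 was higher, the condensin subunit NCAPG at 0.36 (adjusted p = 0.204 by edgeR), and 1 lower. In the anaphase-promoting complex 2 of 17 were higher and 1 lower, ANAPC16 at -0.47, which was -0.63 and past the threshold without T4A replicate 1 (adjusted p = 0.0121 by edgeR). In mitotic entry control 1 of 20 was higher and 2 lower, among them CCNF at -0.43. CCNF was -0.24 without T4A replicate 1, and -0.65 and past the threshold without T4A replicate 2 (adjusted p = 7.78e-05 by edgeR). In the wider spindle and cytokinesis list 1 of 29 was higher and 1 lower. The latter was NEK6, a kinase that acts on spindle kinesin and is activated by NEK9. It was 61.3 and 57.4 normalized CPM in WT and 32.8 and 35.8 in T4A, with no overlap and a fold change of -0.79 on the log2 scale (standard error 0.10, adjusted p = 0.105 by edgeR). It was past the threshold by DESeq2 (adjusted p = 8.13e-08), and its log2 fold change lay between -0.87 and -0.72 with 1 library left out. MAD1L1, SPAG5 and LIN37 are listed at 0 in all 4 libraries and were not tested. For comparison, of 29 genes of G1/S and replication 8 stood higher and 1 lower at this p-value, led by CCNE2 at 0.36. These are 27.6% and 3.45%, against 20% and 0% of the 40 mitotic genes, so the lean to higher values was not particular to the latter. The median log2 fold change of the G1/S and replication genes was 0.09, and 0.02 without T4A replicate 2. Their values ran from -0.82 to 0.36, so the largest difference in that list was toward lower values in T4A.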

How the data were processed

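Nascent RNA was measured by TT-seq in 4 libraries. The authors deposited raw counts per gene, made from uniquely aligned reads. The submitters' processing notes name FastQC, cutadapt 4.6, STAR 2.7.11b, Picard, deepTools 3.5.6 and the build GRCh38. The version, annotation and strand setting of the counting are not given in the sources used here. Listed length equals the span in all 60708 genes, so introns were counted. Unique alignment makes genes with near-identical copies uncertain, and whether counting used strand is not stated. If not, reads over the part that 16 of the 42 genes share with a gene on the other strand may have been left unassigned. Identifiers were named through GENCODE, which gave a symbol for 58702 genes; of 19045 protein-coding genes found in RefSeq by symbol, 99.979% overlapped their GRCh38 position. PECAM1, set down as a marker, was not analysed here, and 1 other marker is not reported here.

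Differences were fitted in edgeR 4.0.16 (R 4.3.3) after TMM scaling and filterByExpr, by the quasi-likelihood F test over all 23321 genes kept, and p-values were adjusted by Benjamini-Hochberg. Genes past an adjusted p-value of 0.05 and a fold change of 1.5 were called. Standard errors came from the F statistic and 95% intervals from its degrees of freedom. The 42 genes, their roles, the other lists and the tests were chosen with earlier results of these data known. Values per library are given for genes called, genes with an unadjusted p-value under 0.05, the 10 largest differences and 7 main regulators or markers; of the other lists, the largest difference among genes with such a p-value is named. Genes described beyond that rule were named to show each role. Alternatives were DESeq2 1.42.0, other scalings, filters and gene sets, the replicate number as a block, no fold threshold, and leaving out each library. Intervals cover the spread between libraries only.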

Additional observations from a re-analysis of the deposited data

How the results depend on the processing

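None of the 42 genes was called in any alternative that kept the fold threshold, those that left out a library included, nor in the edgeR fit of all libraries with no fold threshold. By DESeq2 the adjusted p-values of CKS2, NEK2 and PTTG1 were 0.000187, 0.0481 and 0.0477, and without T4A replicate 2 those of CKS2 and NEK2 were 0.00433 and 0.00179 by edgeR, with fold changes below 1.5, so that these genes would have passed there with no fold threshold. The number of the 42 genes higher at an unadjusted p-value under 0.05, 8 in the report, was 13 with library size in place of TMM, 1 with scaling to mitochondrially encoded genes, 3 with the replicate block and from 1 to 7 with 1 library left out, and the number lower was 0 throughout. Of all genes tested, 10.5% were higher at that p-value with library size, 5.72% with mitochondrial scaling and 6.81% with the block, against 7.45% in the report. The 3 of 40 tested genes with the block thus lay near the background, and the 1 of 40 with mitochondrial scaling below it. The median log2 fold change of the mitotic genes was 0.0929 with library size, where the median of all genes was 0.0499. It was 0.0069 with no filter on low counts, where that of all genes was higher, at 0.0559. It ran from 0.0071 to 0.0431 with 1 library left out, and lay below the 0.0179 of all genes without WT replicate 1.

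Over all genes 1 was called. DESeq2 called 99, no filter on low counts 65, scaling to mitochondrially encoded genes 195 and the replicate block 433, and leaving out 1 library gave 0 to 2500, the highest without T4A replicate 2. Of the other cell-cycle lists, where 0 were called, DESeq2 called 1, no filter 1, mitochondrial scaling 2, the block 3, and leaving out a library 0 to 6; NEK6 was called in each of the first 4 of these. Over all genes the replicate numbers showed no pairing of the libraries, with a correlation of deviations between libraries that share a number of 0.00498. Pairing in a part of the genes was not tested.

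For 21 genes named with a log2 fold change, 216 of 231 values under alternatives kept direction and side of the threshold and 8 passed it, 6 of them for NEK6. The sign turned for CCNB1 with library size (0.0402), with protein-coding genes only (0.0231) and among the fits that left out a library (-0.049 to 0.0194), for PLK1 with no filter (-0.0016) and with a library left out (-0.109 to 0.132), and for AURKB with a library left out (-0.0233 to 0.234). The cause of these changes was not tested. The 21 genes are those picked by the naming rule, and log2 fold changes of the other genes described were not followed one by one under the alternatives. Where 1 library is left out, the lone library is assumed to vary like the other group. With 2 libraries a group, the 95% intervals of the tested genes reached 0.19 to 0.31 to either side on the log2 scale. Differences of 0.41 for CKS2 and -0.79 for NEK6 did not pass the adjusted threshold.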
